A study of Mus musculus with 2 samples.

Results

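Classical monocytes are the circulating, inflammatory monocytes of the mouse, which carry the surface protein Ly6C and the chemokine receptor CCR2. They were picked out here, cell by cell, from single-cell transcriptomes of a mouse tumour. A cell counted as a classical monocyte if it held at least 4 unique molecular identifiers (UMIs, each 1 captured transcript) summed over Ly6c2, Chil3 and Vcan, at least 1 of Plac8 and at least 1 of Ccr2 or Csf1r. It also had to have no UMI of Ace or Treml4, of the T cell receptor chains Cd3d, Cd3e and Cd3g, of the neutrophil genes Cxcr2 and Retnlg or of Siglech, and less than 0.15% of its UMIs from C1qa, C1qb and C1qc. This left 972 of 20602 cells, 449 of 11617 in the library titled Blood and 523 of 8985 in the library titled Control.

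The cells came from fibrosarcomas, tumours of connective tissue, grown from syngeneic cells implanted under the skin of wild-type C57BL/6 mice. The study compared tumours that received autologous erythrocytes in buffered saline with tumours that received saline alone, 1 library for each. Titles and treatments go against each other, since the one titled Blood is labelled PBS injected and the one titled Control is labelled erythrocyte injected. The libraries are therefore called by their titles, and which of them had received erythrocytes is not known here. The sources used here do not give the age or number of the mice, or whether cells were sorted. With 1 library per group there was no test, and every difference describes these libraries only. All intervals are exact 95% intervals that cover counting error only.

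Classical monocytes leave the bone marrow through CCR2, enter inflamed tissue and tumours, and there either remain monocytes, take up antigen-presenting functions under interferon, or mature into macrophages. In blood they can also convert to the Ly6C-low, patrolling monocytes that depend on Nr4a1. In tumours, low oxygen and growth factors are known to raise Arg1, the enzyme arginase, in such cells, and type I interferon raises a broad antiviral programme that includes Ly6c2 itself.

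The libraries were close in total depth, with 115066023 UMIs in the library titled Blood and 115272096 in the library titled Control, and 346 kept barcodes were shared between them, none of them a monocyte in both. A monocyte held 7170 UMIs in the middle of the range titled Blood and 6904 titled Control, and 2242 and 2201 genes, so their depths were close. Their sums were 3897777 and 4868416 UMIs, and levels are given as CPM, the UMIs of a gene with these sums scaled to a common total.

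The rule also let in cells that carry transcripts of other lineages. In the library titled Blood 61 monocytes (13.6%), and in the library titled Control 59 (11.3%), held at least 5 UMIs of the markers of another class, among them 11 and 20 cells with mesenchymal markers, 26 and 27 with NK cell markers, 21 and 20 with T cell markers and 9 and 29 with dendritic cell markers. These cells were few but deep, and gave 29.4% and 34.4% of the monocytes' UMIs. The mesenchymal markers summed to 865 CPM in the library titled Blood and 1446 CPM in the library titled Control, and to 10.2 and 21.6 CPM once those cells were left out. Most list counts, and the levels of several of the genes with the largest differences, are therefore given with and without them. The set without them, 388 cells titled Blood and 464 titled Control, was defined after the data were seen.

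The genes that chose the cells describe them and are no finding. Ly6c2, a Ly6 surface protein whose gene lies at chr15:75108158-75111970 (GRCm38), stood at 815 CPM (787 to 844) in the library titled Blood and 1211 CPM (1180 to 1242) in the library titled Control, and the ratio was 0.673 (0.645 to 0.703). Chil3, a chitinase-like secreted protein, was at 638 and 743 CPM, and Vcan, the proteoglycan versican, at 274 and 264 CPM. Plac8, a small cysteine-rich protein of leukocytes, was at 2589 and 2567 CPM, Ccr2 at 553 and 488 CPM and Csf1r, the receptor of the macrophage growth factor CSF1, at 304 and 280 CPM. Of these, Ly6c2 was the one that differed most between the libraries, and it is also a gene the selection reads. Ace, Treml4, Cd3e and Retnlg were at 0 by construction. C1qa remained at 48.5 and 67.6 CPM, close to its level in T cells of the same libraries, 63.4 and 66.2 CPM, which do not make complement C1q and were held to the same limit.

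The label was checked, beside T cells, with monocyte genes that the rule did not read. Lyz2, the lysozyme of myeloid cells, was at 6975 CPM in the library titled Blood and 7726 CPM in the library titled Control, and at 9062 and 11170 CPM without the cells that bear markers of another class. In T cells of the same libraries it was at 176 and 178 CPM. Still, 49 monocytes (10.9%) titled Blood and 58 (11.1%) titled Control had fewer than 5 Lyz2 UMIs, so about that share of the cells does not bear out the label. Fcgr1, the high-affinity receptor for IgG, was at 433 and 542 CPM, against 7.13 and 14.1 CPM in T cells. Of 7 markers of Ly6C-low monocytes, 5 had UMIs and Ace and Treml4 were at 0 by the rule, and the sum came to 258 and 266 CPM. The 8 macrophage markers, of which the rule limits the C1q chains, summed to 2040 and 1938 CPM. They had UMIs in 442 of 449 monocytes titled Blood and 520 of 523 titled Control. Apoe, which is among them, held 6051 and 6956 UMIs. The comparison with T cells cannot tell monocytes from macrophages.

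Set beside the C1q-rich macrophages that also carry Ccr2, 1796 cells titled Blood and 2384 titled Control, the monocytes held secreted and membrane proteins that those macrophages had at a few CPM. Slpi, a secreted inhibitor of leukocyte proteases, was at 563 and 355 CPM in monocytes titled Blood and titled Control, and at 15.7 and 5.07 CPM in the macrophages. Hp, haptoglobin, which binds free haemoglobin, was at 216 and 196 CPM against 4.11 and 2.77 CPM. Ifitm6, an interferon-induced transmembrane protein, was at 232 and 240 CPM against 7.52 and 11.6 CPM, and Dmkn, dermokine, at 134 and 104 CPM against 1.504 and 1.15 CPM. All 4 were picked for the size of their ratio over these macrophages in both libraries, so their higher levels follow from that choice. The same held without the cells bearing markers of another class. The collagens Col1a1, Col1a2 and Col3a1 met the same rule of size, but 97.3% and 78.5% of the Col1a2 UMIs came from 10 cells, and its level without the other-class cells was 3.27 and 4.38 CPM.

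Set beside the monocytes with Ace or Treml4, 156 cells titled Blood and 141 titled Control, F13a1, the transglutaminase subunit of coagulation factor XIII, was at 258 CPM in classical monocytes titled Blood and 153 CPM in those titled Control, against 67.7 and 49.5 CPM. Ccl2, the main ligand of CCR2, was at 774 and 1284 CPM against 248 and 428 CPM. Mrc1, the macrophage mannose receptor, was at 142 and 100 CPM against 42.6 and 27.0 CPM. Hp and Ifitm6 were at like or higher levels in these cells: Hp was at 253 and 232 CPM and Ifitm6 at 384 and 400 CPM in the monocytes with Ace or Treml4.

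**Figure D1:**
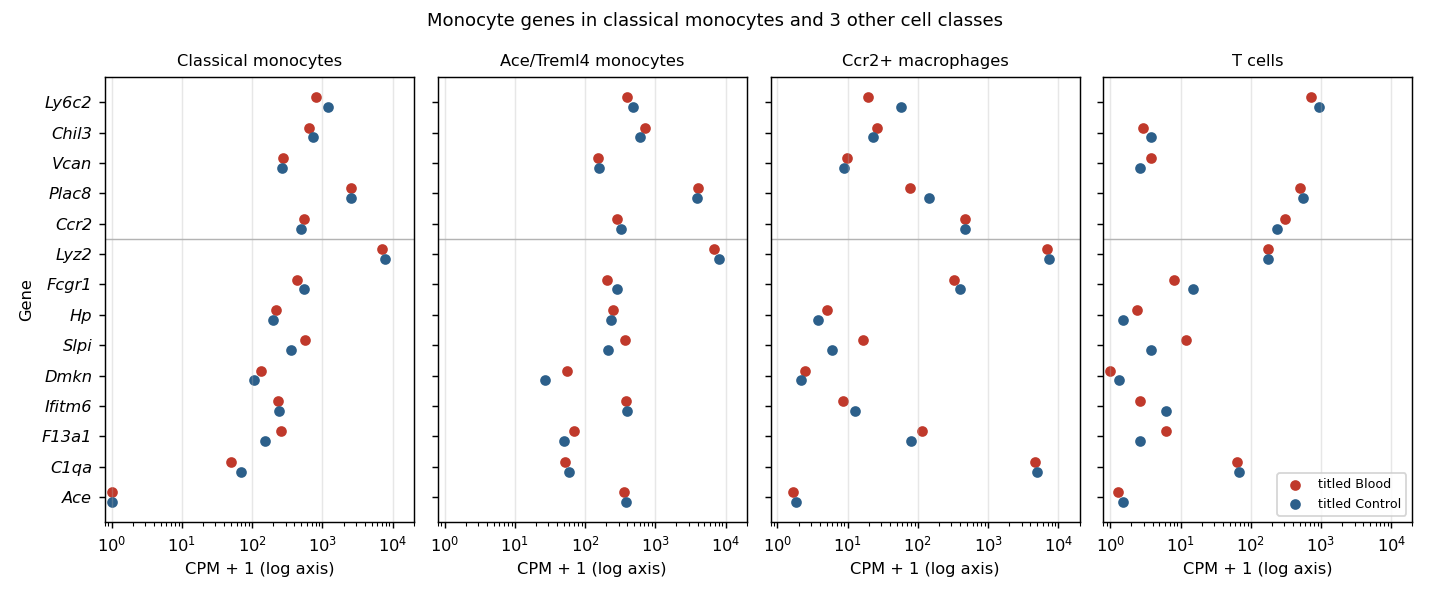
CPM plus 1 (log axis) of 14 genes in classical monocytes, monocytes with Ace or Treml4, C1q-rich macrophages with Ccr2 and T cells, as 1 red point for the library titled Blood and 1 blue point for the library titled Control. Genes above the grey line chose the cells; Hp, Slpi, Dmkn and Ifitm6 lie between 100 and 600 CPM in classical monocytes and under 20 CPM in the macrophages in both libraries.

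Classical monocytes made up a smaller share of the library titled Blood. They were 3.87% of kept cells (3.52% to 4.23%) in the library titled Blood and 5.82% (5.35% to 6.33%) in the library titled Control, and the ratio was 0.664 (0.584 to 0.755). Without the cells bearing markers of another class the ratio was 0.647 (0.564 to 0.742). Monocytes with Ace or Treml4 were 1.34% and 1.57%, a ratio of 0.856 whose interval (0.677 to 1.08) included 1. Neutrophils, defined by Cxcr2 or Retnlg with S100a8 and S100a9, were 575 cells titled Blood and 53 titled Control, and among cells with under 10 UMIs of S100a8 and S100a9 the monocyte ratio was 0.748 (0.658 to 0.851). Kept cells had a median of 6690 UMIs in the library titled Blood and 9385 in the library titled Control. With every cell thinned to 3000 UMIs before the rule was applied, which left out 3061 and 1000 shallower cells, the shares were 3.71% and 4.55%, and the ratio was 0.815 (0.699 to 0.9502). The rule counts UMIs of Ly6c2, which was itself lower in the library titled Blood, and the part of that in the share was not tested.

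Cells close to the limits of the rule were few. The marker sum of Ly6c2, Chil3 and Vcan was exactly 4 in 32 monocytes titled Blood and 30 titled Control, and exactly 3 in 48 and 47 cells that passed every other step. Just inside the C1q limit, at 0.10% to 0.15%, lay 13 and 26 cells, and just outside it, at 0.15% to 0.20%, 8 and 20 cells. Lyz2 was at 3686 and 4576 CPM in the cells with a sum of 4, and at 3847 and 3757 CPM in those with a sum of 3. In all, 612 and 537 cells failed the marker sum alone, 215 and 149 the absence of Cd3 alone and 175 and 344 the C1q limit alone.

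Of 3136 genes that reached 50 CPM in one library or both and had 100 UMIs or more in all, 60 (1.91%) were at least 1.5-fold higher and 101 (3.22%) at least 1.5-fold lower in the library titled Blood, by the ratio of CPM plus 5. Without the cells bearing markers of another class, 45 of 2953 genes (1.52%) were higher and 75 (2.54%) lower by that size. Of the 60 and 101 genes, 32 and 40 were also past it in the smaller set. The median log2 ratio over all genes tested was near 0 in both, at 0.0011 and 0.0021. These shares and medians are the background of every list count that follows.

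Most of the 12 lowest ratios were nearer to 1 without the other-class cells. Among the 12 lowest log2 ratios, Mfap5 at -3.75, Acta2 at -2.96, Tpm2 at -1.36 and Cavin3 at -1.38 are genes of stromal and contractile cells, and Ube2c, Cdk1, Cenpf, Hist1h2ap and Hist1h2ae serve cell division. The others were Sox4, a transcription factor, and the interferon-stimulated Ifit3 and Ifit2, which were at -1.69 and -1.35 here and at -1.86 and -1.52 in the smaller set. Mfap5 had UMIs in 2 monocytes titled Blood and 8 titled Control, and its top 10 cells held all of them. Without the other-class cells Mfap5 was at 0.364 and 1.57 CPM, and Ube2c was at 23.6 CPM in the library titled Blood and 7.20 CPM in the library titled Control, which turns its log2 ratio from -1.94 to 1.23. Both genes were under the 50 CPM filter in that set. A single monocyte titled Blood in it had 2.02% of its 17932 UMIs from the cell cycle list, where the 95th percentile was 0.304%. The part of that cell in the Ube2c value was not tested. In the cell cycle list 10 of 16 measured members were at least 1.5-fold lower, beside 3.22% of all genes tested, with a median log2 ratio of -0.88. But in the smaller set 6 members were measured, 1 was lower, beside 2.54%, and the median was -0.10. The differences in Mfap5 and Ube2c, and the size of the cell cycle list median, went with the cells that bear markers of another class. A difference per cell in the cell cycle list remained without them. In the smaller set the list made up a median of 0.1496% of a cell's UMIs titled Blood and 0.1688% titled Control. There 38.92% (34.04% to 43.97%) of the monocytes titled Blood lay above the median of those titled Control, beside 38.75% among all selected monocytes.

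**Figure D2:**
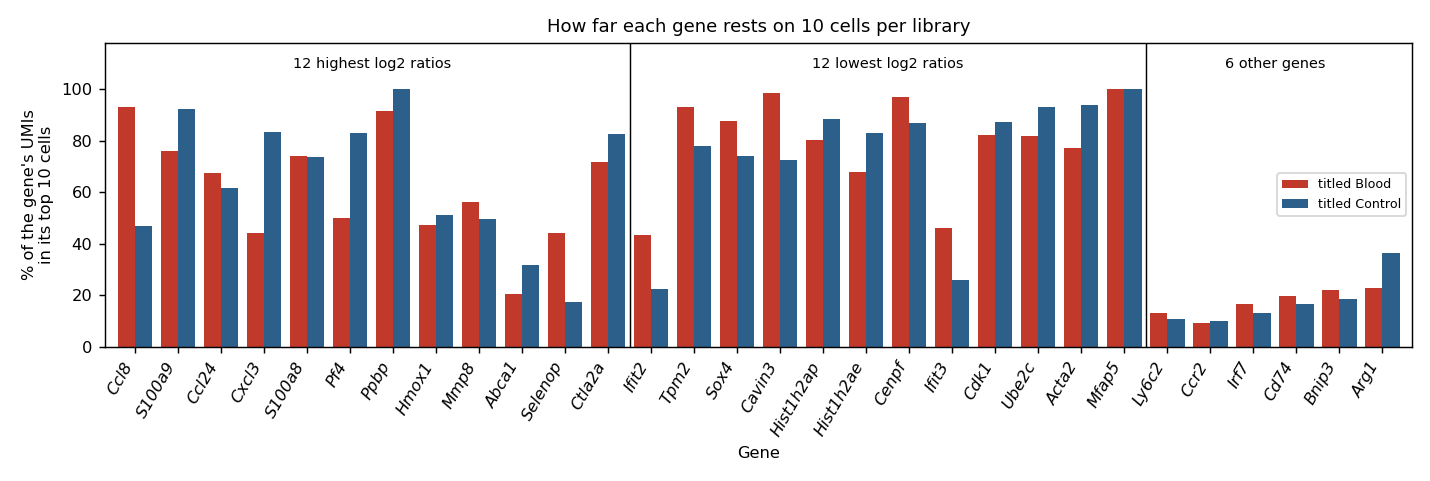
Percent of each gene's UMIs that came from the 10 monocytes with most of them, for the 12 highest and 12 lowest log2 ratios and 6 other genes, with red bars for the library titled Blood and blue bars for the library titled Control. Mfap5, Acta2, Cenpf, Ube2c and Ppbp stand above 75% in both libraries, and Ly6c2, Ccr2, Irf7, Cd74 and Bnip3 under 25%.

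Without those cells, interferon-stimulated genes led the lower end. Of the 12 lowest log2 ratios in the smaller set, 6 were interferon-stimulated genes: Ifit3 at -1.86, Ifit2 at -1.52, Ifit1bl1 at -1.45, Oasl1 at -1.26, Rsad2 at -1.24 and Ifit1 at -1.20. The other 6 were Cd72, an inhibitory receptor best known from B cells, Ccnd2, a cyclin, the MHC class I gene H2-Q6, the Ly6 family genes Ly6a and Ly6i, and Cx3cr1, the receptor of fractalkine. This set and its order were looked at after the values were seen.

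Interferon-stimulated genes were lower in monocytes titled Blood across the list. Of 51 symbols listed, 50 were in the files and 47 were measured, and of these 19 were lower by 1.5-fold or more and 0 higher by that size, beside 3.22% and 1.91% of all genes tested. All 47 had a log2 ratio under 0, with a median of -0.45 beside 0.0011 over all genes tested. Without the cells bearing markers of another class, 24 of 48 measured members were at least 1.5-fold lower and the median was -0.56. With every cell thinned to 3000 UMIs, 29 of 48 were lower by that size, where 100 of 2854 genes were. With no filter beyond 1 count, 22 of 50 were lower by that size and 0 higher, where 500 and 229 of 15581 genes were. Ifit3b, Ifit1bl1 and Ifi44 did not pass the filter.

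The largest differences were in the IFIT proteins, which bind viral RNA. Ifit3, at chr19:34583531-34588731 (GRCm38), stood at 64.4 CPM (56.7 to 72.9) in the library titled Blood and 218 CPM (205 to 232) in the library titled Control, and the ratio was 0.295 (0.256 to 0.339). Ifit2 was at 66.7 and 178 CPM, and Ifit1 at 81.1 and 191 CPM. Rsad2, the antiviral enzyme viperin, was at 203 CPM (189 to 218) titled Blood and 484 CPM (465 to 504) titled Control, and the ratio was 0.419 (0.386 to 0.454). Oasl1, an OAS-like protein that restrains translation of Irf7, was at 46.7 and 119 CPM. Irf7, the transcription factor that amplifies type I interferon, was at 238 CPM (223 to 254) titled Blood and 444 CPM (425 to 463) titled Control, and the ratio was 0.536 (0.496 to 0.580). Isg15, a ubiquitin-like modifier, was at 590 and 948 CPM. Ifitm3, which blocks virus entry and had a high level in both libraries, differed less, at 3733 and 4456 CPM, and the ratio was 0.838 (0.820 to 0.856).

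Interferon-stimulated promoters share a DNA element, the interferon-stimulated response element, which is bound by ISGF3 and other IRF-containing factors. Promoters of 40 of the 51 symbols were found in RefSeq (GRCm38.p6), from 250 bases before to 50 bases after the start of the gene. The letters GAAA, followed by 2 bases of any kind and again GAAA, or on the other strand TTTC, 2 bases and TTTC, were in 22 of the 40 (55.0%), against 1079 of 27025 symbols (3.99%) in the whole table. The following 3 are shown because these genes are among the members described above, in capitals where the letters matched: Ifit3 at chr19:34583279-34583578 on the plus strand with 2 matches, Rsad2 at chr12:26456403-26456702 on the minus strand with 1 match and Isg15 at chr4:156200769-156201068 on the minus strand with 3 overlapping matches, each read in the direction of its gene.
Ifit3: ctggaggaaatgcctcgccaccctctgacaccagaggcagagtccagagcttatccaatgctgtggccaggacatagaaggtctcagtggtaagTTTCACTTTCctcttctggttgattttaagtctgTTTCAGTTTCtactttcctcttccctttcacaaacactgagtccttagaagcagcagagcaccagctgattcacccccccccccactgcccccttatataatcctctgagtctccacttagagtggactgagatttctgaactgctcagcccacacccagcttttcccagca
Rsad2: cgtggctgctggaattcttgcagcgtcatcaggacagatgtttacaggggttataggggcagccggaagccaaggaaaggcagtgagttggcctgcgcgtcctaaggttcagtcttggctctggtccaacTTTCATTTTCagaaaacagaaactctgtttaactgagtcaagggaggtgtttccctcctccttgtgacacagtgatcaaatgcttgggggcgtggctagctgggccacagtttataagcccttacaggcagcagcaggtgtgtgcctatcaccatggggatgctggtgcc
Isg15: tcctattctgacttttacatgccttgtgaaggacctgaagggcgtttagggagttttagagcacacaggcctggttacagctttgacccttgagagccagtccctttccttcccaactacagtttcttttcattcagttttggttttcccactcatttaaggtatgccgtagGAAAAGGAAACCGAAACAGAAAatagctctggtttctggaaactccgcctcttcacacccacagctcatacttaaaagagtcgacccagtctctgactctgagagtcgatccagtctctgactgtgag
The 20 measured members with the letters had a median log2 ratio of -0.45 (-1.69 to -0.20), and the 17 without them a median of -0.47 (-1.35 to -0.0020). The ranges overlap over nearly their whole length.

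Interferon-stimulated transcripts were lower across the range of cells, not in the richest alone. They made up a median of 1.54% of a cell's UMIs in the library titled Blood and 2.16% in the library titled Control, and 1.65% and 2.21% without the other-class cells. Of the monocytes titled Blood, 27.0% (22.9% to 31.3%) lay above the median of those titled Control, and 3.12% (1.72% to 5.18%) above 4.53%, the 90th percentile of those titled Control. With every cell thinned to 3000 UMIs, Ifit3 was found in 10.2% of monocytes titled Blood and 25.9% titled Control, beside 9.11% and 15.3% of T cells, which express interferon-stimulated genes too. Irf7 was found in 44.8% and 59.9% of monocytes, beside 16.8% and 26.1% of T cells.

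The same list was lower in other cells of the library titled Blood. Its median log2 ratio was -0.49 in monocytes with Ace or Treml4, -0.62 in C1q-rich macrophages with Ccr2 and -0.44 in T cells, for the members measured in the classical monocytes. These medians come from the same pair of libraries, so they are not independent, and nothing here sets the classical monocytes apart in the size of the difference. In level the list was a median of 0.403% of UMIs in the C1q-rich macrophages titled Blood and 0.646% in those titled Control, under the monocytes in both libraries.

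The GBP and IRG proteins, GTPases that interferon-gamma induces against intracellular pathogens, lay under 0 in log2 ratio for all 10 measured of 16 members, with a median of -0.44. Of these 1 was at least 1.5-fold lower, beside 3.22% of all genes tested, and 3 of 10 in the smaller set, beside 2.54%, with a median of -0.49. Iigp1 was the 1 member past that size among all selected monocytes, at 40.8 and 87.9 CPM in the libraries titled Blood and Control. Ly6i, a Ly6 gene of the same cluster as Ly6c2, was at 97.8 CPM titled Blood and 199 CPM titled Control, and the ratio was 0.491 (0.435 to 0.553). Cxcl10, a chemokine for T cells that interferons induce, was at 699 and 1424 CPM, and the ratio was 0.491 (0.469 to 0.513), whereas Cxcl9, a related chemokine, was at 651 and 731 CPM.

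Genes of antigen presentation by MHC class II were lower in monocytes titled Blood. Of 15 symbols 10 were measured, 9 of them with a log2 ratio under 0 and with a median of -0.41. By 1.5-fold or more 2 were lower and 0 higher, beside 3.22% and 1.91% of all genes tested, and in the smaller set 5 of 10 were lower, beside 2.54%, with a median of -0.51. With every cell thinned to 3000 UMIs 5 of 10 were lower, where 100 of 2854 genes were. H2-Ab1, a class II beta chain, was at 1311 CPM (1275 to 1347) titled Blood and 2052 CPM (2012 to 2092) titled Control, and the ratio was 0.639 (0.618 to 0.661). H2-Eb1, another beta chain, was at 863 and 1365 CPM, and H2-Aa, the alpha chain, at 1155 and 1672 CPM. Cd74, the invariant chain that guides class II molecules, was at 3833 and 5494 CPM, and the ratio was 0.698 (0.684 to 0.712). Ciita, the master regulator of class II genes, was at 55.7 and 70.0 CPM, and the ratio was 0.795 (0.667 to 0.945). H2-Eb2, H2-DMb2, H2-Oa and H2-Ob did not pass the filter, and 1 symbol of the list was not among those of the files.

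Class II transcripts were uneven between cells, and fewer monocytes titled Blood were rich in them. Their share of a cell's UMIs had a median of 0.479% in the library titled Blood and 0.876% in the library titled Control, and an upper quartile of 1.21% and 2.55%. Of the monocytes titled Blood, 11.1% (8.38% to 14.4%) lay above that upper quartile of those titled Control. The class II genes were also lower in T cells titled Blood, where Cd74 was at 189 CPM against 517 CPM in T cells titled Control, and the part of free RNA in the monocytes' difference was not tested. In C1q-rich macrophages Cd74 was at 9643 and 12100 CPM. For the members measured in the classical monocytes, the class II list had a median log2 ratio of -0.35 in monocytes with Ace or Treml4. The median was -0.26 in C1q-rich macrophages with Ccr2 and -0.65 in T cells, so the direction was not particular to the classical monocytes. Genes of MHC class I presentation differed less, with a median log2 ratio of -0.24 over 17 of 20 members and 0 past the size rule. In the smaller set 3 of 19 were at least 1.5-fold lower, beside 2.54% of all genes tested, with a median of -0.29, and H2-Q6 was among them at 22.2 and 60.7 CPM. B2m, the light chain of class I molecules, was at 2943 and 3019 CPM.

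Genes of hypoxia and glycolysis were higher in monocytes titled Blood, by less. Of 28 measured gene entries, 8 were at least 1.5-fold higher and 0 lower, beside 1.91% of all genes tested, and the median log2 ratio was 0.26. Without the cells bearing markers of another class 7 of 28 were higher, beside 1.52%, and the median was 0.17. The difference was smaller with every cell thinned to 3000 UMIs before the rule was applied, which chose 317 and 363 monocytes. There 3 of 26 were higher, where 55 of 2854 genes were, and the median was 0.077. Among genes of at least 200 CPM 1 of 15 was higher, where 19 of 808 genes were. The 8 were Ero1l, Hilpda, Egln3, Bnip3, Mxi1, Ddit4, Ankrd37 and Ndrg1, and the glycolytic enzymes with the highest levels were not among them: Gapdh was at 2454 and 2282 CPM and Pkm at 1482 and 1330 CPM. Pdk1 and Adm did not pass the filter, and the symbol Aldoa stands for 2 identifiers in the files, 1 of which passed. The list was also higher in other cells of the library titled Blood. For the members measured in the classical monocytes, its median log2 ratio was 0.22 in monocytes with Ace or Treml4. It was 0.18 in C1q-rich macrophages with Ccr2 and 0.22 in T cells, so the direction was not particular to the classical monocytes.

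Ero1l, an oxidase of the endoplasmic reticulum, was at 169 CPM (157 to 183) in the library titled Blood and 87.3 CPM (79.2 to 96.0) in the library titled Control, and the ratio was 1.94 (1.71 to 2.20). Hilpda, a lipid droplet protein induced by low oxygen, was at 257 and 134 CPM, and the ratio was 1.92 (1.73 to 2.12). Bnip3, a mitophagy receptor, was at 163 CPM (151 to 177) titled Blood and 85.9 CPM (77.8 to 94.5) titled Control, and the ratio was 1.90 (1.68 to 2.16). Egln3, an oxygen-sensing prolyl hydroxylase, was at 58.8 and 29.4 CPM, and Mxi1, a repressor of the MYC network, at 104 and 59.2 CPM. Vegfa, the endothelial growth factor, was at 262 and 252 CPM, with an interval of the ratio (0.953 to 1.13) that included 1. These genes are high in neutrophils, where Hilpda was at 2235 and 772 CPM and Bnip3 at 557 and 208 CPM, and neutrophil markers summed to 291 CPM in monocytes titled Blood and 125 CPM in those titled Control. Without the cells bearing markers of another class those sums were 225 and 124 CPM, and Hilpda stood at 301 and 161 CPM. That set leaves out cells with at least 5 UMIs of S100a8 and S100a9, which are among the neutrophil markers. Of 11 neutrophil markers Cxcr2, Retnlg, Camp and Ngp were at 0 in both libraries, the first pair by the rule. The part of neutrophil RNA in these values was not tested.

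Factors induced by low oxygen bind DNA with the core letters ACGTG. These letters, or CACGT on the other strand, were in 21 of 28 hypoxia and glycolysis promoters found in RefSeq (75%), against 21.8% of all 27025 symbols. The promoters of Bnip3 at chr7:138909457-138909756 on the minus strand, with 2 overlapping matches, and of Egln3 at chr12:54203825-54204124 on the minus strand, with 1 match, are shown as a pair of members past the size rule, with matches in capitals.
Bnip3: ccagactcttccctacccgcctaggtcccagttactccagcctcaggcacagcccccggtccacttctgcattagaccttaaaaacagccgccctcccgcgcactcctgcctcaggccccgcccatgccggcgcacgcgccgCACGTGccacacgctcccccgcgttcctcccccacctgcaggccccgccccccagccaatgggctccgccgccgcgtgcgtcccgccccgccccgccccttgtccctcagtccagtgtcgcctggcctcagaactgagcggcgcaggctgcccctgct
Egln3: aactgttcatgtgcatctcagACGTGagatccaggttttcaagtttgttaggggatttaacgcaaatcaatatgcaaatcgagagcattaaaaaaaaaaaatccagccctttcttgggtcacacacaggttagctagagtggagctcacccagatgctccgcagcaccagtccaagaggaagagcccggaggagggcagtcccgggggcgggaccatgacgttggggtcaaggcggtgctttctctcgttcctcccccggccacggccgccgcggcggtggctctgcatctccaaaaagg
The 21 measured members with the letters had a median log2 ratio of 0.27 (0.034 to 0.91) and the 5 without them 0.12 (0.033 to 0.44).

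**Figure D3:**
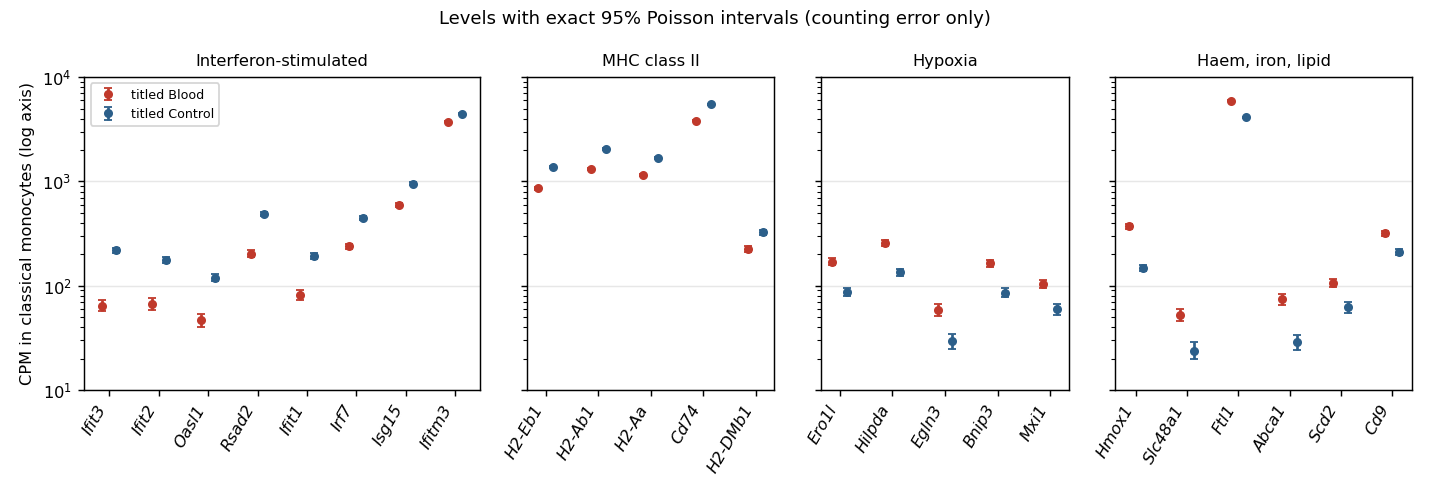
CPM in classical monocytes (log axis) of 24 genes in 4 groups, with the library titled Blood in red left of the library titled Control in blue and exact 95% Poisson intervals as bars. All 13 interferon-stimulated and class II genes shown lie lower, and all 11 hypoxia, haem, iron and lipid genes shown higher, in the library titled Blood. The genes were picked by their ratios or with their values in view, and do not stand for their whole lists.

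The share of hypoxia and glycolysis transcripts overlapped widely between the libraries, with a median of 1.20% of a cell's UMIs titled Blood and 1.03% titled Control. Of the monocytes titled Blood 58.4% (53.6% to 63.0%) lay above the median of those titled Control, and 15.1% (11.96% to 18.8%) above their 90th percentile. Within a library, cells with more Arg1 had more hypoxia and glycolysis transcripts, with a Spearman rho of 0.527 over 371 monocytes titled Blood and 0.373 over 433 titled Control, each cell without other-class markers and thinned to 3000 UMIs. Cells with more Ly6c2 had more interferon-stimulated transcripts, with a rho of 0.451 and 0.352, and hypoxia and interferon-stimulated transcripts ran against each other, with a rho of -0.325 and -0.131. Cells of 1 library share its preparation, and Ly6c2 also chose the cells, so these values are descriptions.

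**Figure D4:**
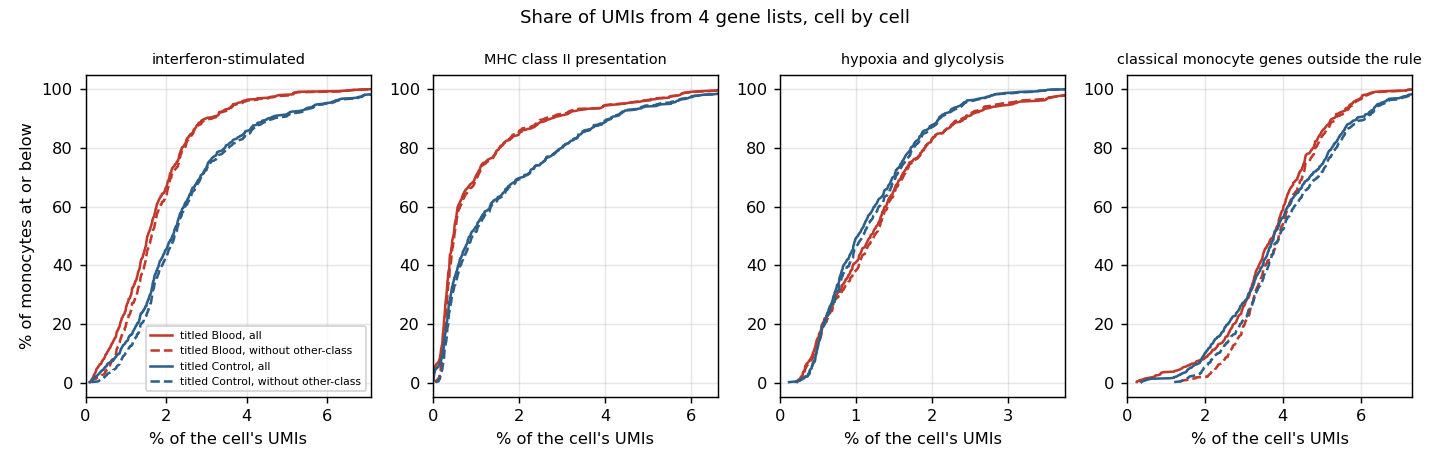
Percent of monocytes at or below a given share of UMIs from 4 gene lists, in red for the library titled Blood and in blue for the library titled Control, with solid lines for all selected monocytes and dashed lines for those without markers of another class. The red interferon-stimulated and class II curves lie left of the blue, with medians of 1.54% and 2.16% and of 0.479% and 0.876% of UMIs, and the monocyte genes outside the rule meet at medians of 3.77% and 3.77% and part above them, with upper quartiles of 4.56% and 5.04%.

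Arg1, the arginase that depletes arginine around T cells, was at 1245 CPM (1210 to 1280) in the library titled Blood and 700 CPM (677 to 724) in the library titled Control, and the ratio was 1.78 (1.70 to 1.86). Without the other-class cells it was at 1428 and 964 CPM, a log2 ratio of 0.56 that falls short of 1.5-fold. Its UMIs were uneven between cells: the top 10 monocytes held 22.6% and 36.4% of them, and it was found in 40.1% and 31.4% of monocytes thinned to 3000 UMIs, beside 7.23% and 4.43% of T cells. Of 19 measured genes of suppressive myeloid cells 5 were at least 1.5-fold higher, Arg1, Wfdc17, Clec4d, S100a8 and S100a9, beside 1.91% of all genes tested, but in the smaller set 1 of 18 was, beside 1.52%, and the median log2 ratio was 0.019 in place of 0.26. The smaller set leaves out cells with at least 5 UMIs of S100a8 and S100a9 together, so the fall of this pair follows from its rule. Wfdc17, a small secreted protein, was at 838 and 508 CPM, and Clec4d, a lectin receptor, at 359 and 218 CPM.

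Genes of haem and iron handling are of interest because erythrocytes carry haem, but the contradicting labels leave the direction unread. Hmox1, haem oxygenase, which breaks haem down, was at 371 CPM (352 to 391) in the library titled Blood and 148 CPM (137 to 159) in the library titled Control, and the ratio was 2.51 (2.29 to 2.75). It was found in a similar share of cells, 45.0% and 40.3%, and its top 10 cells held 47.4% and 51.1% of its UMIs. Without the other-class cells it was at 424 and 209 CPM. Slc48a1, a haem transporter of the lysosome, was at 52.3 and 23.8 CPM, and the ratio was 2.20 (1.74 to 2.78). Ftl1, the ferritin light chain, was at 5961 and 4107 CPM, and the ratio was 1.45 (1.42 to 1.48), and Fth1, the heavy chain, at 8685 and 7466 CPM. Of 13 measured of 28 members, 2 were at least 1.5-fold higher and 0 lower, Hmox1 and Slc48a1, in both sets of cells, beside 1.91% of all genes tested higher and 1.52% in the smaller set. In C1q-rich macrophages Hmox1 was at 196 CPM titled Blood and 211 CPM titled Control, and the list had a median log2 ratio of -0.016 there and of 0.22 in the monocytes; the difference between the classes was not tested.

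Lipid genes had a median log2 ratio of 0.35, with 2 of 13 measured members at least 1.5-fold higher in monocytes titled Blood, beside 1.91% of all genes tested, and 0 lower. In the smaller set 4 of 14 were higher, beside 1.52%, with a median of 0.31. Abca1, which exports cholesterol, was at 74.1 CPM in the library titled Blood and 28.6 CPM in the library titled Control, and the ratio was 2.60 (2.11 to 3.20), and it was at 88.0 and 42.6 CPM without the other-class cells. Scd2, a fatty acid desaturase, was at 106 and 61.8 CPM, and Cd9, a tetraspanin, at 317 and 212 CPM. Ctsd, the lysosomal protease cathepsin D, was at 522 and 273 CPM, and the ratio was 1.91 (1.78 to 2.05), and Selenop, a secreted selenium carrier, at 180 and 75.2 CPM. T cells held 429 and 350 CPM of Ctsd.

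Genes that rise as monocytes mature into macrophages were mixed. Of 20 measured, 3 were at least 1.5-fold higher, Pf4, Selenop and Ctsd, and 1 lower, Cx3cr1, beside 1.91% and 3.22% of all genes tested, with a median log2 ratio of 0.23. In the smaller set 4 were higher and 3 lower, beside 1.52% and 2.54%, with a median of 0.11. The list's share of a cell's UMIs had like medians, 0.9157% titled Blood and 0.9233% titled Control, but its upper end was richer titled Blood. Of the monocytes titled Blood, 16.93% (13.57% to 20.72%) lay above the 90th percentile of those titled Control. Without the other-class cells 15.46% (12.01% to 19.45%) lay above the 90th percentile of that set. Aif1, an actin-binding protein of microglia and macrophages, was at 381 CPM in the library titled Blood and 573 CPM in the library titled Control. Of 17 measured antioxidant genes, targets of NRF2, 1 was higher, Hmox1, and 0 lower, beside 1.91% and 3.22% of all genes tested, with a median of 0.21. In the smaller set 2 of 17 were higher, beside 1.52%, with a median of 0.13. Of 16 measured genes of matrix and coagulation 5 were higher, Mmp8, Mmp12, F13a1, F10 and Adam8, and 0 lower, and 2 of 15 were higher in the smaller set, beside 1.91% and 1.52% of all genes tested. F10, coagulation factor X, was at 217 and 142 CPM, and Adam8, a membrane metalloprotease, at 368 and 242 CPM.

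Chemokines differed in both directions. Of 22 measured cytokines and chemokines 5 were at least 1.5-fold higher titled Blood and 4 lower, beside 1.91% and 3.22% of all genes tested. In the smaller set 5 and 4 of 23 were, beside 1.52% and 2.54%. The 4 lower were Cxcl10, described above, and 3 ligands of CCR2: Ccl2 at 774 CPM titled Blood and 1284 CPM titled Control, Ccl7 at 155 and 246 CPM and Ccl12 at 61.8 and 108.2 CPM. Without the other-class cells Ccl7 was at 159 and 206 CPM, a log2 ratio of -0.37 that falls short of 1.5-fold, and 1 monocyte held 17.6% of its UMIs in the library titled Control. Il1b, the inflammatory cytokine interleukin-1 beta, was at 2579 and 2737 CPM.

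The 5 higher chemokines were Ccl24, Ccl8, Cxcl3, Cxcl2 and Pf4. Ccl24, a chemokine for eosinophils, was at 649 CPM (624 to 675) titled Blood and 86.1 CPM (78.0 to 94.7) titled Control, and the ratio was 7.54 (6.80 to 8.38), and 10 monocytes held 67.5% and 61.6% of its UMIs. Without the other-class cells it was at 889 and 122 CPM. It was found in 19.3% and 9.78% of thinned monocytes, beside 0.936% and 0.333% of T cells. Ccl8, another CC chemokine, was at 290 and 33.7 CPM, but 1 cell held 58.4% of its UMIs in the library titled Blood. It had UMIs in 17.8% of monocytes titled Blood and 17.0% titled Control. Without the other-class cells Ccl8 was at 385 and 27.2 CPM, and that 1 cell was still in the set. Cxcl3, a neutrophil chemokine, was at 372 and 81.3 CPM in monocytes and at 6671 and 2343 CPM in neutrophils, and Cxcl2, a related one, at 2339 and 1309 CPM in monocytes and at 27470 and 19700 CPM in neutrophils. In T cells titled Blood and titled Control Cxcl3 was at 51.0 and 3.02 CPM and Cxcl2 at 162 and 43.1 CPM, far under the monocytes, and the part of neutrophil RNA in the monocytes' values was not tested. Pf4, platelet factor 4, was at 1133 and 427 CPM, and at 943 and 529 CPM without the other-class cells.

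S100a8 and S100a9, the calgranulins abundant in neutrophils, had UMIs in T cells at levels like those in monocytes titled Blood. S100a9 was at 52.3 CPM (45.4 to 60.03) in monocytes titled Blood and 2.67 CPM (1.42 to 4.57) in those titled Control, but at 96.8 and 1.34 CPM in T cells, which do not make it. S100a8 was at 63.1 and 17.3 CPM in monocytes and at 73.6 and 2.01 CPM in T cells. Monocytes titled Blood were thus below the T cells of their own library for both, and their values there do not stand above the level in a cell type that should lack the genes. Mmp8, a collagenase that is also among the neutrophil markers, was at 56.2 and 19.9 CPM in monocytes and 3.07 and 0 CPM in T cells. The part of neutrophil RNA in its monocyte values was not tested.

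Most genes that mark classical monocytes, beyond those of the rule, did not differ by much. Of 31 measured of 35 members, 2 were at least 1.5-fold higher in the library titled Blood and 1 lower, beside 1.91% and 3.22% of all genes tested. The median log2 ratio was 0.072, and -0.013 in the smaller set. There 0 were higher and 1, Ly6i, was lower, beside 1.52% and 2.54%. The 2 higher members were F13a1 and Clec4d. F13a1 was at 258 and 153 CPM, and the ratio was 1.69 (1.53 to 1.86). The joint share of the measured and unmeasured members in a cell's UMIs had a median of 3.77% in both libraries, but the upper quartile was 4.56% titled Blood and 5.04% titled Control. Of 5 measured genes of Ly6C-low monocytes none was past the size rule, and Nr4a1, on which those cells depend, was at 188 and 219 CPM.

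Receptors and sensors differed little. Of 25 measured trafficking and growth factor receptors 0 were at least 1.5-fold higher and 1, Cx3cr1, lower, beside 1.91% and 3.22% of all genes tested. Cx3cr1 was at 29.3 CPM titled Blood and 62.2 CPM titled Control, and the ratio was 0.470 (0.376 to 0.585). Of 19 measured pattern recognition and Fc receptors 0 were past the size rule in either direction; Fcer1g, the common chain of Fc receptors, was at 2699 and 2700 CPM, with an interval of the ratio from 0.975 to 1.03. Over 24 heat shock and immediate early genes, which cell preparation is known to raise, the median log2 ratio was -0.094 with 0 past the size rule, and stress genes of the unfolded protein response one of -0.012 over 16.

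**Figure D5:**
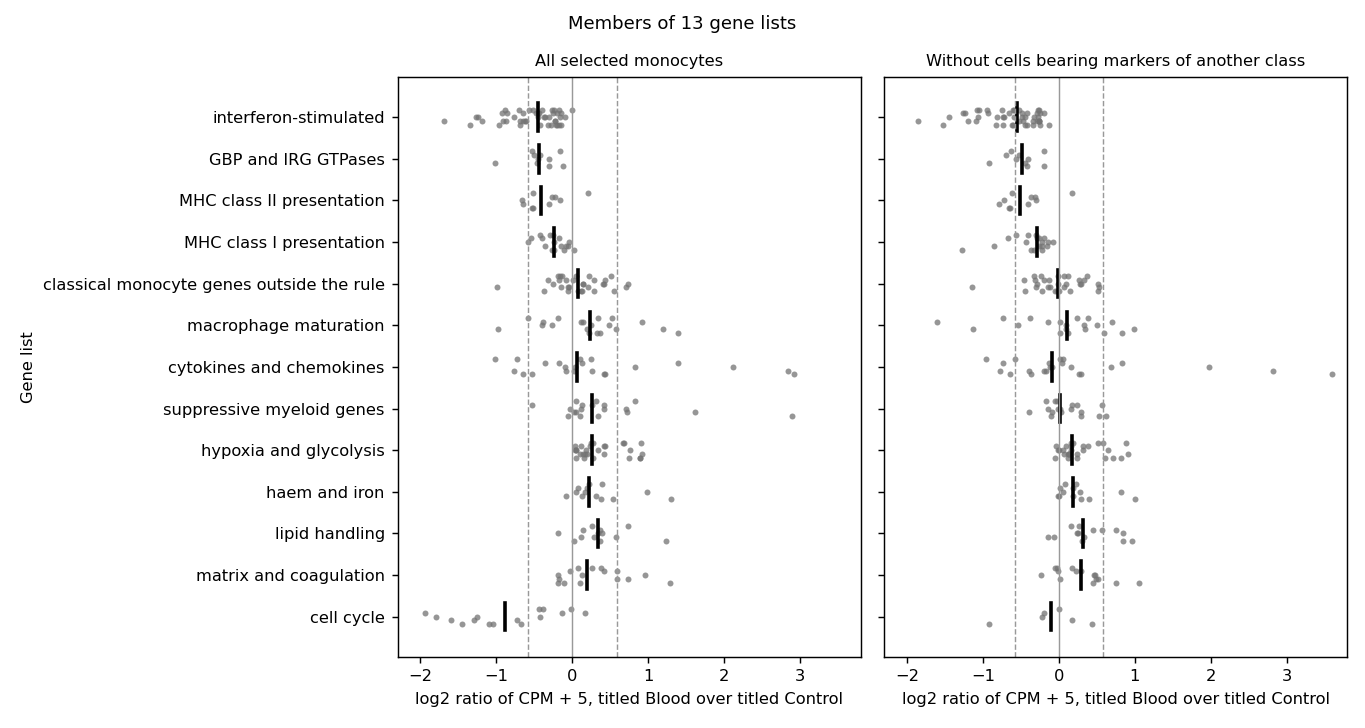
Log2 ratio of CPM plus 5, titled Blood over titled Control, for each measured member (points) of 13 gene lists with its median (black bar), in all selected monocytes on the left and without the cells bearing markers of another class on the right; dashed lines mark 1.5-fold. The interferon-stimulated median is -0.45 on the left and -0.56 on the right, and the cell cycle median is -0.88 and -0.10.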

How the data were processed

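Single cells of tumours were profiled with the 10x Genomics 3' v3 chemistry after enzymatic digestion for 45 minutes at 37 °C (collagenase B, DNase I) and erythrocyte lysis, per the labels' protocols. The authors deposited raw counts of UMIs for each gene in each barcode. The submitters' processing notes name Cell Ranger 3.1.0 and mm10. The annotation release is not given there. Reads fall at transcript ends, so near-identical MHC, Ly6, Ifit, Oasl, Slfn and histone genes can share counts and are uncertain.

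Coordinates come from GENCODE M21 (GRCm38), which held 30934 of the 31053 identifiers. Filters of 300 genes, 500 UMIs and 20% mitochondrial UMIs left 11617 of 12057 barcodes titled Blood and 8985 of 9475 titled Control. Counts of the selected cells were summed per library and given as CPM with exact Poisson intervals, shares with Clopper-Pearson and ratios with conditional binomial intervals. CPM plus 5 was used for log2 ratios, so ratios of low genes are understated. Cells gave no p-values. Doublets were kept in the main results. Scrublet (scanpy 1.11.5) marked 2.38% and 1.80% of kept cells, with 2 and 3 monocytes among them, where 9.65% and 7.58% were expected, so doublets remain.

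C1q-rich macrophages were cells with at least 0.5% C1q UMIs and 2 UMIs of Ccr2, T cells had at least 3 Cd3 UMIs, monocytes with Ace or Treml4 at least 2 UMIs of that pair, and neutrophils at least 2 UMIs of Cxcr2 or Retnlg with at least 10 of S100a8 and S100a9, the macrophages and these monocytes also with Csf1r, the others without it, all but the macrophages under the C1q limit, and each without the excluding genes of the other classes. Named genes were the 12 highest and 12 lowest ratios, up to 5 members per list, the genes of the rule, the 10 with the largest smaller ratio over each comparison class, and marker genes. Ifit1, Irf7, Isg15, Cxcl2, Cxcl9, Cxcl10, Ccl7, Ccl12, Ciita, Vegfa, Fth1 and the other members named without a place in that rule were picked with their values in view. The members and the 19 gene lists were chosen with earlier results of these data known. The alternatives of the closing section included TMM factors (edgeR 4.0.16). The summing and ratio steps were tested on simulated data.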

Additional observations from a re-analysis of the deposited data

How the results depend on the processing

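No paired analysis was possible because there is 1 library per group, and with 1 library per group none could be left out. The share of monocytes was recomputed under 11 alternatives and the other results under 17, and the direction of the share and of all 3 list medians held in each. The monocyte share ratio ranged from 0.634 to 0.815, the highest with cells thinned to 3000 UMIs. The interferon-stimulated median ranged from -0.687 to -0.304 and reached -0.687 with thinned cells, and the hypoxia and glycolysis median ranged from 0.0771 with thinned cells to 0.282. The class II median, which rests on 9 to 14 members, was -0.562 with a marker minimum of 6, -0.322 with C1q under 0.05%, -0.491 with C1q under 0.5%, -0.745 with thinned cells, -0.572 without the 5% deepest monocytes, -0.532 as a mean of per-cell CPM, -0.51 with at least 10 CPM and 20 counts and -0.514 with at least 200 CPM. It was -0.512 without the cells bearing markers of another class and -0.516 with at least 5 Lyz2 UMIs required, both chosen after the data were seen. The counts of genes at least 1.5-fold higher and lower were 170 and 353 with at least 10 CPM and 20 counts, 229 and 500 with no filter beyond 1 count and 19 and 25 with at least 200 CPM, where 8120, 15581 and 808 genes were tested. Apart from these filters, whose construction changes the number tested, the cause of each shift was not tested. TMM factors moved the median of all genes to 0.018 and changed no direction. Depth limits genes of a few CPM: 3 counts equal 0.77 CPM in the library titled Blood and 0.616 CPM in the library titled Control.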

Other observations

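Genes outside the lists were among the 12 highest and 12 lowest ratios once the cells bearing markers of another class were left out, and those described here were looked at after their values were seen. Emp1, an epithelial membrane protein, was at 211 CPM in the library titled Blood and 85.2 CPM in the library titled Control, and Serpinb8, a protease inhibitor, at 67.6 and 31.6 CPM. The log2 ratio of Emp1 was 1.26 in that set and 0.41 over all selected monocytes, and that of Serpinb8 0.99 and 1.05. At the lower end, Ly6a, the Ly6 surface protein also called Sca-1, was at 393 and 900 CPM, Ccnd2 at 29.1 and 88.0 CPM and Cd72, which is in the macrophage maturation list, at 15.3 and 56.7 CPM. Of the 12 highest ratios in the smaller set 7 were also among the 12 highest over all selected monocytes, and of the 12 lowest 2, which were Ifit3 and Ifit2.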
